A study of Mus musculus with 9 samples.

Results

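Bone morphogenetic protein (BMP) signalling was followed through 10 genes while the lung buds are induced, in wild-type mouse embryos from which the mid-foregut was dissected. The genes were picked by name with earlier results of these data known, so counts over them describe these arrays and test nothing about the set. They comprise the ligands Bmp2, Bmp4 and Bmp7, the receptors Bmpr1a, Bmpr2 and Acvr1, the SMAD proteins Smad1, Smad5 and Smad6, and the secreted antagonist Nog. All probe sets whose only annotated symbol was one of these names were taken, which gave 20 probe sets for 10 of the 12393 genes measured. Of these, 17 passed a filter on dim signals and were tested among 14266 probe sets. Of the other 3, 1 was the sole probe set of Nog, 1 was the third and dimmest of Bmp7 and 1 was the second of Smad1. The tissue was the gut tube between the pharyngeal arches and the liver, freed of neural tube and heart, at 16-20 somites (embryonic day 8.5), 21-25 somites (day 9.0) and 26-30 somites (day 9.5). Somites are the paired mesoderm blocks by which embryos of this age are staged. Each stage had 3 biological replicates, each a pool of 5 to 10 foreguts amplified in 2 rounds and hybridised to 1 Affymetrix array, so the spread between replicates is that of pools with their arrays, and 3 arrays a stage limit the precision. All embryos were untreated as far as the labels say, and the earliest stage served as the baseline. The pools hold epithelium and mesenchyme together, so fewer cells of a type and less RNA per cell cannot be told apart.

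BMP ligands are secreted dimers that bring together type I receptors (Bmpr1a and Acvr1 here) and type II receptors (Bmpr2 here). The type II receptor phosphorylates the type I receptor, which phosphorylates Smad1 and Smad5, and these enter the nucleus with Smad4 to regulate targets such as the Id genes. Smad6 blocks the pathway inside the cell and Nog (noggin) binds ligands outside it. In the embryonic foregut Bmp4 is known from the ventral mesenchyme next to the site of lung budding, and loss of BMP receptors from the foregut endoderm is known to disturb the separation of trachea and oesophagus.

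Promoter sequence is shown for Bmpr1a, Acvr1 and Smad1, the 3 genes whose brightest probe set had an unadjusted p under 0.05 in the same direction in both comparisons with 16-20 somites, and for the receptor gene Bmpr2, whose signal gave no such difference. RefSeq's GRCm38.p6 table held 9 start sites for 7 of the 10 genes. Each line is the 250 bases before the annotated start, 5′ to 3′ on the gene's strand, with GGCGCC in capitals, a palindrome known as a binding motif of BMP-activated SMADs and so the same on both strands.
Bmpr1a, chr14:34502547-34502796, minus strand: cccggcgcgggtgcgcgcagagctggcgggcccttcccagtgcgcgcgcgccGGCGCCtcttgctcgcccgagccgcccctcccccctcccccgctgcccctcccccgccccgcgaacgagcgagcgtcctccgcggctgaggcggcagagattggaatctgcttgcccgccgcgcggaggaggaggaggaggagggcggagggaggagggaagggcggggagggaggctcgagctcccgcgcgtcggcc
Acvr1, chr2:58566829-58567078, minus strand: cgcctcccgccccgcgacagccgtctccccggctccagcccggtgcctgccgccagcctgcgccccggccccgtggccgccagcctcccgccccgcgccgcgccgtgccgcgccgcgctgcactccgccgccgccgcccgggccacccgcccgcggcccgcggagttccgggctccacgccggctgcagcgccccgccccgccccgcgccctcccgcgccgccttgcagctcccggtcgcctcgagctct
Smad1, chr8:79399429-79399678, minus strand: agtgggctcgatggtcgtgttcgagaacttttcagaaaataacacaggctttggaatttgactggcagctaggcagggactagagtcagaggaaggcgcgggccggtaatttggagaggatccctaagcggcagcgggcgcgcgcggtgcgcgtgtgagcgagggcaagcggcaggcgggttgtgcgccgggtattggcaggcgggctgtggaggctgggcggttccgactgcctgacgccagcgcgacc
Bmpr2, chr1:59764029-59764278, plus strand: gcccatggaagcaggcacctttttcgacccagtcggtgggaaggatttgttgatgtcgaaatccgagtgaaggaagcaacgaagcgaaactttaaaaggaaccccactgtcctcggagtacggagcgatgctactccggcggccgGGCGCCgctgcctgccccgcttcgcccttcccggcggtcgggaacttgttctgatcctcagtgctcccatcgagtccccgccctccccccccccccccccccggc
GGCGCC was found once before Bmpr1a, starting 198 bases upstream, once before Bmpr2, 105 bases upstream, and once before 1 of the 3 start sites of Smad5, 19 bases upstream. It was absent from these windows of Acvr1, Smad1, Smad6 and Bmp4. Over all 32851 windows of the same length, 9.59% held it. GTCTG, the short SMAD box, searched as GTCTG and its complement CAGAC, was found before another start site of Smad5 and in 42.2% of all windows. The windows are rich in G and C, at 78.8% for Bmpr1a, 85.6% for Acvr1, 63.6% for Smad1 and 64.0% for Bmpr2, against a median of 52.4%. A match is a run of letters and not a measured binding site.

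Some arrays stood apart. The brightest probe set reached only 27479.8 to 32583.5 on 3 arrays (replicate 1 at 21-25 somites, replicates 1 and 2 at 26-30 somites), called narrow-range below, and 43791.6 to 61749.1 on the other 6. Across the 17 tested BMP probe sets the median deviation from the probe set's own mean, in log2 units, was highest on these arrays, at 0.60, 0.13 and 0.25, against -0.34 to 0.08 on the others. The 3'/5' signal ratio of the actin control probe sets, a sign of how complete the amplified RNA is, was 20.9 to 22.2 where the range was narrow, 22.4 on 21-25 somites replicate 3, and 25.4 to 36.8 at 16-20 somites, with 45.3 on 21-25 somites replicate 2 and 32.5 on 26-30 somites replicate 3. The same ratio for Gapdh was 16.0 to 21.0 on the narrow-range arrays, 21.6 on 21-25 somites replicate 3, 22.6 to 26.0 at 16-20 somites, and 36.4 and 40.9 on the last 2 arrays named. The part of these ratios in the BMP values, and in the disagreement of probe sets of 1 gene, was not tested. The narrow-range arrays all come from the 2 later stages. Differences from 16-20 somites therefore cannot be fully told apart from differences in signal range. Of 12 foregut epithelium markers 10 lay above the filter, among them Foxa2 and Sox2, while Nkx2-1 and Shh did not. Of 12 foregut mesenchyme markers 10 did, while Foxf1 and Tbx4 did not. Cardiac markers (14 genes) summed to 19188.1 on 16-20 somites replicate 2 and to 3614.4 and 4543 on the other arrays of that stage, 5555.5 to 6203.1 at 21-25 and 2656.4 to 7686.1 at 26-30 somites. Hepatic markers (11 genes) summed to 36359.8 on the same array and to 2469.6 and 4551.1 on the others of its stage, 1726.3 to 8775 at 21-25 and 1526.4 to 3045.5 at 26-30 somites. None of these markers was listed at 0, and their part in the BMP values was not tested.

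Signals below are MAS5 intensities on a linear scale, and differences are in log2 units with their SE, fitted by limma after a pseudocount was added to every signal, which shrinks the differences of dim probe sets. Over the whole interval the brightest probe sets of Bmp4, Bmp7, Bmpr1a, Acvr1 and Smad1 had signals on all 3 arrays of 26-30 somites above all 3 of 16-20 somites, with log2 differences of 0.31 to 0.71. Those of Bmp2, Bmpr2, Smad5, Smad6 and Nog overlapped between the stages. No BMP probe set passed the test: in limma with Benjamini-Hochberg adjustment 0 of 17 were called in the comparison of 26-30 with 16-20 somites, as were 0% of all probe sets tested, and the smallest adjusted p among the 17 was 0.430. At an unadjusted p under 0.05 there were 4 of 17, against 10.4% of all tested. The arrays of 26-30 somites lay wholly higher for 7 of 17, against 10.9% of all, and wholly lower for 1, against 9.60%, and the 7 come from 5 genes. The median log2 difference of the 17 was 0.26, with 12 positive, beside a median of 0.02 and 51.6% positive over all tested. These counts are a description, since the genes were chosen with earlier results of these data known. Without the 3 narrow-range arrays the median of the 17 was 0.17, resting on 1 remaining array at 26-30 somites, whose spread is taken to equal that of the other stages.

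**Figure D1:**
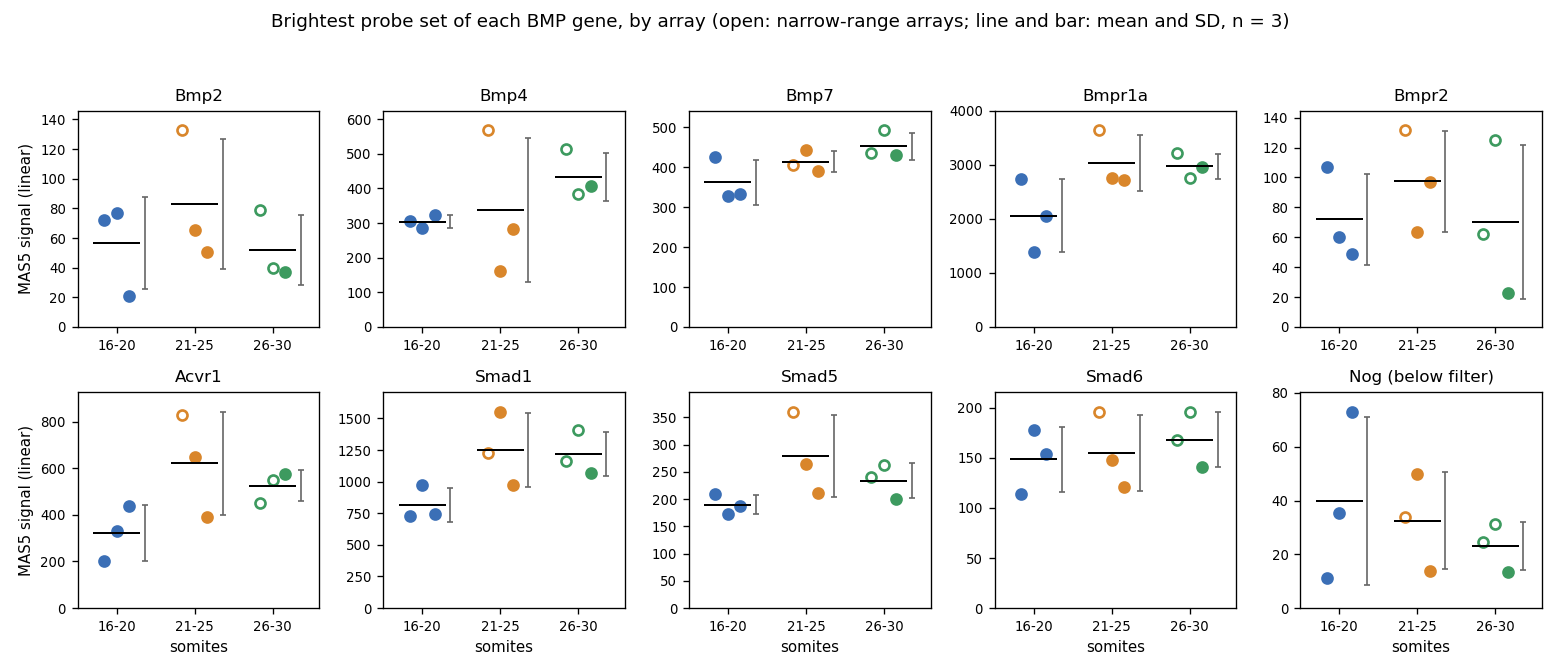
MAS5 signal (linear, from 0) of the brightest probe set of each of the 10 genes on each of the 9 arrays, by somite stage; open circles are the 3 narrow-range arrays, lines are stage means and bars are SD (n = 3). Bmp4, Bmp7, Bmpr1a, Acvr1 and Smad1 sit higher on all arrays of 26-30 than of 16-20 somites, and 21-25 somites replicate 1 is the highest point of its stage for 7 of the 10 genes.

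Among the ligands, Bmp4 was higher on all arrays of the last stage than of the first. Its only probe set, 1422912_at, read 304.8, 285.3 and 321.8 at 16-20 somites, 567.1, 161.4 and 283.9 at 21-25 somites, and 512.9, 383.1 and 406.2 at 26-30 somites. The middle stage holds both the highest and the lowest array of the series, and the last stage lies wholly above the first. Means were 304 ± 18.3, 337 ± 208 and 434 ± 69.2 (SD, n = 3 each), so the order was 16-20, 21-25, 26-30, with neither neighbouring pair apart beyond its spread. The log2 difference was 0.47 ± 0.34 over the whole interval (limma adjusted p = 0.630), -0.02 ± 0.34 for the first step and 0.49 ± 0.34 for the second. Leaving out each array in turn kept the whole-interval value between 0.35 and 0.55, and without the narrow-range arrays it was 0.39. The first step ran from -0.45 without 21-25 somites replicate 1 to 0.38 without replicate 2 of that stage.

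Bmp7, a ligand that can pair with Bmp2 or Bmp4, had 3 probe sets. The brightest, 1435479_at, read 426, 327.4 and 331.9 at 16-20 somites, 405.8, 442.4 and 390.8 at 21-25 somites, and 434.9, 491.6 and 429.5 at 26-30 somites. Every array of the last stage was above every array of the first, and the middle stage overlapped both. Its log2 difference over the whole interval was 0.31 ± 0.20 (limma adjusted p = 0.594), with 0.19 ± 0.20 and 0.12 ± 0.20 for the steps. The dimmer 1418910_at read 83.7, 224.6 and 121.7, then 79.3, 53.8 and 51.4, then 103.5, 76.7 and 92.9. Here 21-25 somites lay wholly below 16-20 somites, with a log2 difference of -0.88 ± 0.32 (unadjusted p = 0.0168, adjusted p = 0.440 in limma), beside 6.97% of all tested probe sets that lay wholly lower at that step. Over the whole interval its difference was -0.45 ± 0.32 (limma adjusted p = 0.617). The log2 ratio of the brightest to this probe set gave p = 0.0857 in an exact permutation test on the spread between the 3 stage means. That test has no direction, and its p was 0.229 adjusted over 8 such ratios. With single arrays left out the adjusted p ran from 0.0286 without 16-20 somites replicate 1 to 0.4 without 21-25 somites replicate 2. The highest signal of 1418910_at came from 16-20 somites replicate 2, the array with the high cardiac and hepatic sums. Without that array the first-step and whole-interval differences were -0.55 and -0.13. The third, 1432410_a_at, read 2.8 to 16.5 on all arrays, below the filter level of 57.1.

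Bmp2, a close relative of Bmp4, was dim and scattered. Its probe set 1423635_at read 72.4, 77 and 20.9 at 16-20 somites, 132.6, 65.2 and 50.5 at 21-25 somites, and 78.9, 40 and 37 at 26-30 somites, around the filter level. The 3 stages overlapped fully. Its log2 difference was 0.41 ± 0.40 for the first step, -0.45 ± 0.40 for the second and -0.04 ± 0.40 over the whole interval (limma adjusted p of 0.770, 0.998 and 0.979). The first-step value was 0.10 without 21-25 somites replicate 1, which held its highest signal, and 0.04 without 16-20 somites replicate 3, which held its lowest. Among 6 tested genes of the other BMP and GDF ligands, none was called over the whole interval. There 3 were positive and 3 negative, with a median of 0.03, and the widest were Bmp8a (0.47 ± 0.45), Gdf2 (-0.38 ± 0.29) and Bmp5 (0.37 ± 0.35).

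The type I receptor Bmpr1a had the widest coverage, with 5 probe sets from 1 deposited sequence, and 3 of these lay wholly higher at 26-30 than at 16-20 somites. The brightest, 1425492_at, read 2731.6, 1380.3 and 2053.8 at 16-20 somites, 3636.4, 2761 and 2719.9 at 21-25 somites, and 3218.2, 2749.7 and 2954.4 at 26-30 somites. The last stage lies wholly above the first, and of the middle stage only replicate 3 reads below the highest array of the first. Means were 2055 ± 676, 3039 ± 518 and 2974 ± 235 (SD, n = 3). The log2 difference was 0.60 ± 0.26 for the first step, -0.02 ± 0.26 for the second and 0.58 ± 0.26 over the whole interval (limma adjusted p of 0.487, 0.998 and 0.474). Without 16-20 somites replicate 2, which read 1380.3 and is the array with the high cardiac and hepatic sums, the first-step and whole-interval differences were 0.34 and 0.32. The order 16-20, 26-30, 21-25 has its upper neighbours within their spread.

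The probe set 1425493_at read 351.5, 288.7 and 280.8, then 669, 490.8 and 430.9, then 486.2, 525.6 and 409.7 across the stages. Both later stages were wholly above 16-20 somites. Its log2 difference was 0.72 ± 0.23 at the first step (unadjusted p = 0.00841, adjusted p = 0.401) and 0.59 ± 0.23 over the whole interval (unadjusted p = 0.0256, adjusted p = 0.430 in limma). For 1425494_s_at the signals were 634.3, 592.6 and 378.9, then 1258.1, 995.3 and 774.7, then 822.7, 881.1 and 636.2. It had the lowest p of all BMP probe sets at the first step, at a log2 difference of 0.89 ± 0.27 (unadjusted p = 0.00623, adjusted p = 0.380), and both later stages lay wholly above the first. In all, 3 of 17 tested BMP probe sets lay wholly higher at the first step, against 6.40% of all tested, and 2 of these belong to Bmpr1a and 1 to Smad5.

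The remaining Bmpr1a probe sets behaved otherwise. For 1451729_at the signals were 477.3, 401.5 and 398.5 at 16-20 somites, 414.1, 414 and 434 at 21-25 somites, and 353.3, 362.1 and 264.8 at 26-30 somites. The last stage lay wholly below both earlier ones, with a log2 difference of -0.36 ± 0.21 over the whole interval (limma adjusted p = 0.547) and -0.35 ± 0.21 in the second step. The whole-interval value was -0.23 without 26-30 somites replicate 3, and -0.63 with all 3 narrow-range arrays left out. The 21-25 somites arrays of 1425491_at were nearly equal, at 266.6, 265.8 and 267.2, inside the ranges of 176.8 to 321.8 before and 243.5 to 368.4 after. The contrast between probe sets was measured as the log2 ratio of the brightest to each other within an array, which apart from the pseudocount does not depend on how the array was scaled. The ratio of 1425492_at to 1451729_at averaged 2.15 ± 0.39 at 16-20, 2.77 ± 0.26 at 21-25 and 3.10 ± 0.26 at 26-30 somites (SD, n = 3). Its 3 lowest values were those of 16-20 somites, none above 2.45, and the last stage began at 2.84. In an exact permutation test of the 9 arrays, on the spread between the 3 stage means and so without direction, its p was 0.0107. It was 0.0857 adjusted over the 8 such ratios of Bmp7, Bmpr1a, Acvr1 and Smad5. The adjusted p ran from 0.0286 to 0.331 when single arrays were left out, the lowest without 16-20 somites replicate 1 and the highest without replicate 2 of that stage, and it was 0.0429 without 21-25 somites replicate 1. These tests were chosen after the values were seen. The ratios of Bmpr1a 1425492_at to 1425493_at and 1425494_s_at moved by -0.01 and 0.04 over the whole interval.

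**Figure D2:**
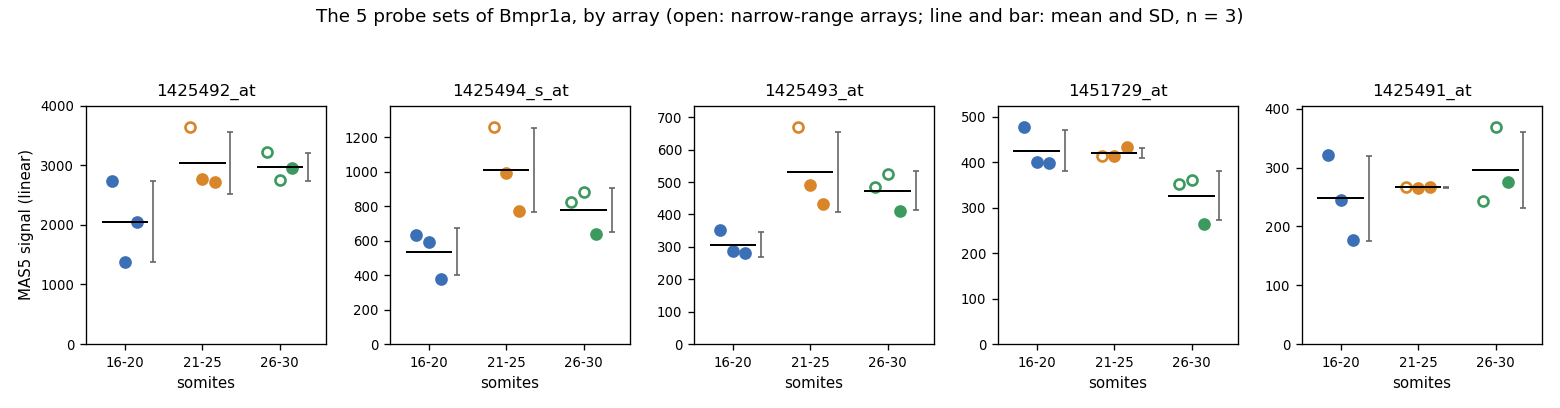
MAS5 signal (linear, from 0) of the 5 probe sets of Bmpr1a on each array, by somite stage; open circles are the narrow-range arrays, lines are means and bars are SD (n = 3). The first 3 are lowest at 16-20 somites, 1451729_at is lowest at 26-30 somites and the last overlaps throughout.

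Acvr1, the other type I receptor, was read by 3 probe sets. The brightest, 1448460_at, gave 200, 330.4 and 439 at 16-20 somites, 829.8, 646 and 389.1 at 21-25 somites, and 449.4, 549.4 and 575.4 at 26-30 somites. The arrays of 26-30 somites were above all of 16-20 somites while those of 21-25 somites overlapped both. Means of 323 ± 120, 622 ± 221 and 525 ± 66.5 (SD, n = 3) put 21-25 somites first, within the spread of 26-30 somites. The log2 difference was 0.89 ± 0.32 for the first step and 0.71 ± 0.32 over the whole interval, the widest of the brightest probe sets in both, with limma adjusted p of 0.439 and 0.472. Without the 3 narrow-range arrays these were 0.66 and 0.85, and without 16-20 somites replicate 1 the whole-interval value was 0.43. The probe set 1416787_at ranged from 83.2 to 212.4, 71.6 to 303.9 and 126.2 to 170.8, with a whole-interval difference of 0.08 ± 0.43, and 1416786_at from 8.1 to 133.6, 3.9 to 144.4 and 51.8 to 82.6, with 0.47 ± 0.63. Their stages overlapped at every comparison. The log2 ratio of 1448460_at to 1416787_at was 0.63 higher at 26-30 than at 16-20 somites. In the exact permutation test without direction, chosen after the values were seen, its p was 0.0786 and its adjusted p 0.229. With single arrays left out the adjusted p ran from 0.0286 without 21-25 somites replicate 1 to 0.419 without 16-20 somites replicate 1.

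The type II receptor Bmpr2 was near the filter level. Its probe set 1419616_at read 106.7, 60.1 and 48.9 at 16-20 somites, 131.4, 63.8 and 97.2 at 21-25 somites, and 62.1, 125 and 22.8 at 26-30 somites. The stages overlapped, and the lowest array of all, 26-30 somites replicate 3, is the only one of its stage outside the narrow-range group. The log2 difference was -0.13 ± 0.41 over the whole interval (limma adjusted p = 0.925), and it was 0.28 without that array and 0.11 without 16-20 somites replicate 1. Of 6 tested genes of the other receptors and coreceptors, 0 were called in limma at any step and 2 had an unadjusted p under 0.05 over the whole interval, where 10.4% of all did. These were Eng (endoglin, a coreceptor of endothelial cells), at 1.00 ± 0.36 with an adjusted p of 0.420, and Bambi, a decoy receptor without a kinase domain, at -0.64 ± 0.25 with an adjusted p of 0.425. Bambi read 662.9, 1248.3 and 792.1 at 16-20 somites and 579.4, 541.1 and 526.1 at 26-30 somites. It was the 1 gene of the 6 that lay wholly lower, against 9.60% of all tested. The signal of 1248.3 came from 16-20 somites replicate 2, the array with the high cardiac and hepatic sums. Neo1, a receptor of the RGM proteins, had 0.60 ± 0.33. Endothelial markers (10 genes) summed to 1962.7 to 2836.4 at 16-20 and 2262.5 to 2825.2 at 26-30 somites, and their part in the Eng value was not tested.

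**Figure D3:**
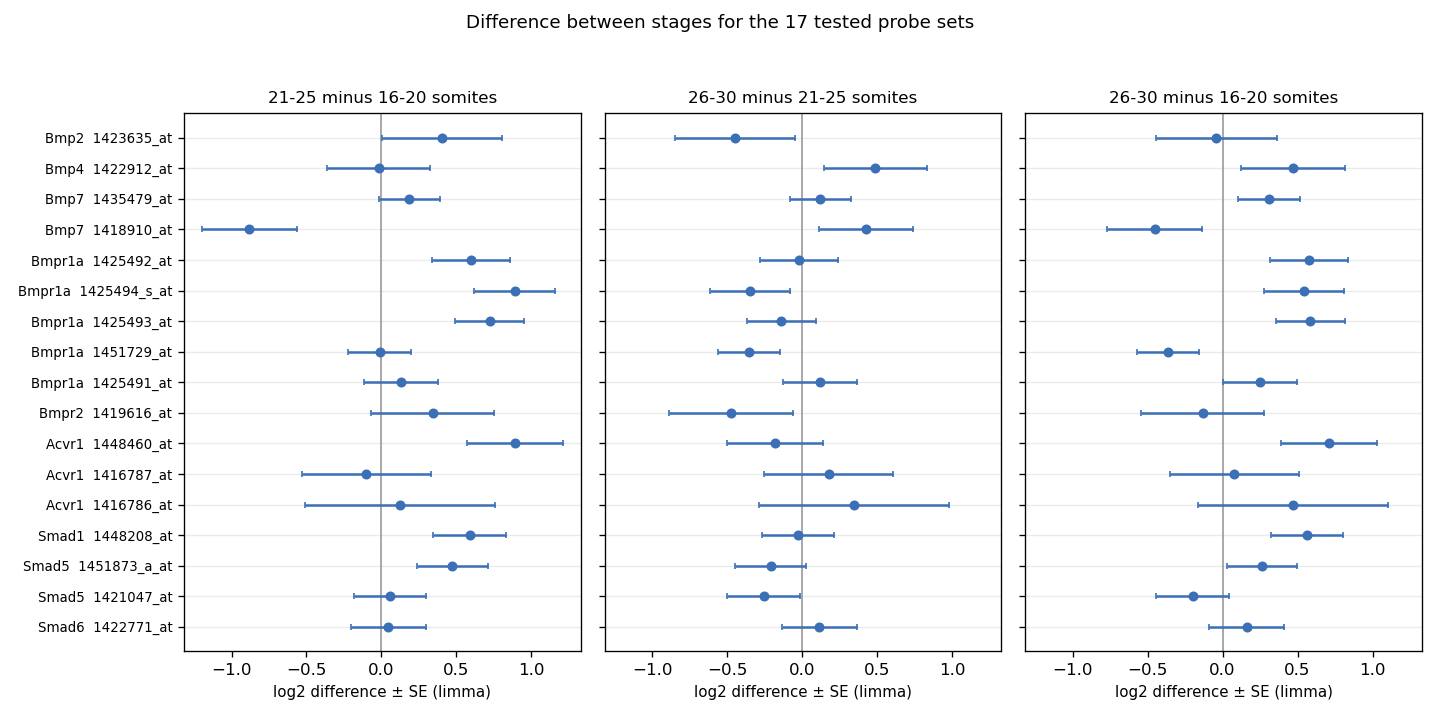
Log2 difference ± SE (limma, all 9 arrays) of the 17 tested probe sets for each step and the whole interval, with 0 marked. In the first step 13 of the 17 lie to the right of 0, and 1418910_at of Bmp7, 1416787_at of Acvr1, Bmp4 and 1451729_at of Bmpr1a lie to the left; in the second step none has an unadjusted p under 0.05.

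Smad1, a receptor-activated SMAD, was higher at the last stage than at the first. Its probe set 1448208_at read 729.3, 971.1 and 746.6 at 16-20 somites, 1229.5, 1554.3 and 970.3 at 21-25 somites, and 1166.2, 1408.4 and 1071 at 26-30 somites. The last stage was wholly above the first, and of the middle stage only replicate 3 reads below the highest array of the first. Means were 816 ± 135, 1251 ± 293 and 1215 ± 174 (SD, n = 3). The log2 difference was 0.59 ± 0.24 in the first step, -0.03 ± 0.24 in the second and 0.56 ± 0.24 over the whole interval (limma adjusted p of 0.479, 0.998 and 0.454). Leaving out each array in turn kept the whole-interval value between 0.45 and 0.69, and without the narrow-range arrays it was 0.39. The other Smad1 probe set, 1416081_at, read 1 to 12.1 and was below the filter.

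Smad5, the close relative of Smad1, had a smaller first-step difference of the same sign in its brighter probe set, and 0.06 ± 0.24 in the other. The brighter, 1451873_a_at, read 208.5, 173.5 and 186.9 at 16-20 somites, 360.7, 265 and 211.3 at 21-25 somites, and 239.9, 261.9 and 199.3 at 26-30 somites. The middle stage was wholly above the first, and the last overlapped both. Its log2 difference was 0.47 ± 0.23 in the first step and 0.26 ± 0.23 over the whole interval (limma adjusted p of 0.517 and 0.696). The first-step value was 0.29 without 21-25 somites replicate 1. With all 3 narrow-range arrays left out the values were 0.29 and 0.066. The other, 1421047_at, ranged from 114.6 to 211.1, 147.3 to 176.1 and 126.7 to 146.7, with 26-30 somites wholly below 21-25 somites and a second-step difference of -0.26 ± 0.24. With Bmpr1a's 1451729_at, this makes 2 of 17 wholly lower at the second step, against 4.67% of all tested, and 0 of 17 wholly higher, against 4.48%.

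Smad6 and Nog overlapped between all stages. Smad6, itself a BMP target in many tissues, read 113.7, 178 and 154.1, then 196, 147.9 and 120.5, then 167.6, 196.4 and 140.9 with 1422771_at. Its log2 difference over the whole interval was 0.16 ± 0.25 (limma adjusted p = 0.841), and 0.010 without 16-20 somites replicate 1. Nog read 11, 35.2 and 73.1 at 16-20 somites, 33.9, 49.8 and 13.7 at 21-25 somites, and 24.4, 31.1 and 13.6 at 26-30 somites. These values lie below the filter level on 8 of 9 arrays, detection calls were not used here, and without a filter its whole-interval difference was -0.33 ± 0.36 (limma adjusted p = 0.808). Among 6 tested genes of the other secreted antagonists and modulators, 0 were called in limma. Over the whole interval 1 had an unadjusted p under 0.05, where 10.4% of all tested did. It was gremlin (Grem1), with 149.2, 127.3 and 164.4 at 16-20 and 77.1, 108.6 and 55.8 at 26-30 somites. Its difference was -0.72 ± 0.25 (adjusted p = 0.417). Twsg1, a binder of BMPs and chordin, had 0.29 ± 0.28, and Bmp1, a chordin-cleaving protease, 0.23 ± 0.39.

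Each step was also counted over all BMP probe sets, again as a description of genes chosen with earlier results known. For 21-25 against 16-20 somites, limma called 0 of 17 BMP probe sets and 0% of all, while 6 of 17 had an unadjusted p under 0.05, against 9.95% of all tested. These were 3 of Bmpr1a and 1 each of Acvr1 and Smad1, all positive, and the dimmer 1418910_at of Bmp7, which was negative (-0.88). In all, 13 of 17 differences were positive, against 50.9% of all. For 26-30 against 21-25 somites, limma called 0 of 17, against 0% of all, 0 of 17 had an unadjusted p under 0.05, against 3.72%, and 7 of 17 were positive, against 51.5%. Both steps use the 21-25 somites arrays, so their values are given side by side. Arrays did not overlap, in either direction, for 4 of 17 at the first step (13.4% of all), 2 of 17 at the second (9.15%) and 8 of 17 over the whole interval (20.5%). The difference between the steps was called for 0 of 17, beside 0% of all, and 2 of 17 had an unadjusted p under 0.05, against 5.52% of all. For any difference among the 3 stages limma called 0 of 17, beside 0% of all, and 3 of 17 had an unadjusted p under 0.05, against 8.58%. For the difference between the steps the unadjusted p was lowest for 1425494_s_at of Bmpr1a, at 0.0208 (adjusted p = 0.878 in limma). Of 10 tested foregut mesenchyme markers limma called 0, 8 had a positive difference over the whole interval with a median of 0.33, 4 lay wholly higher, and 1, Twist1, wholly lower (-0.90 ± 0.27). Over all probe sets tested the shares were 51.6% positive, 10.9% wholly higher and 9.60% wholly lower. The summed signal of all 12 mesenchyme markers was 5899.9 to 6906.8 at 16-20 somites, 7016.4 to 11060.8 at 21-25 somites and 7734.1 to 9937.8 at 26-30 somites. The sum of foregut epithelium markers (12 genes) was 10969.8 to 17777.1, 9777.3 to 10717.4 and 10249.5 to 11388.9. In it the keratins Krt8 and Krt18 were bright, at 7627.1 and 5458.8 on 16-20 somites replicate 2, which held the highest sum. Of 10 tested epithelium markers limma called 0, and 6 were positive over the whole interval, with a median of 0.10. There 0 lay wholly higher and 1, Krt18, wholly lower (-1.31 ± 0.30), to be read against the same shares, while Sox2 had 1.04 ± 0.38. Their part in the BMP values was not tested.

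**Figure D4:**
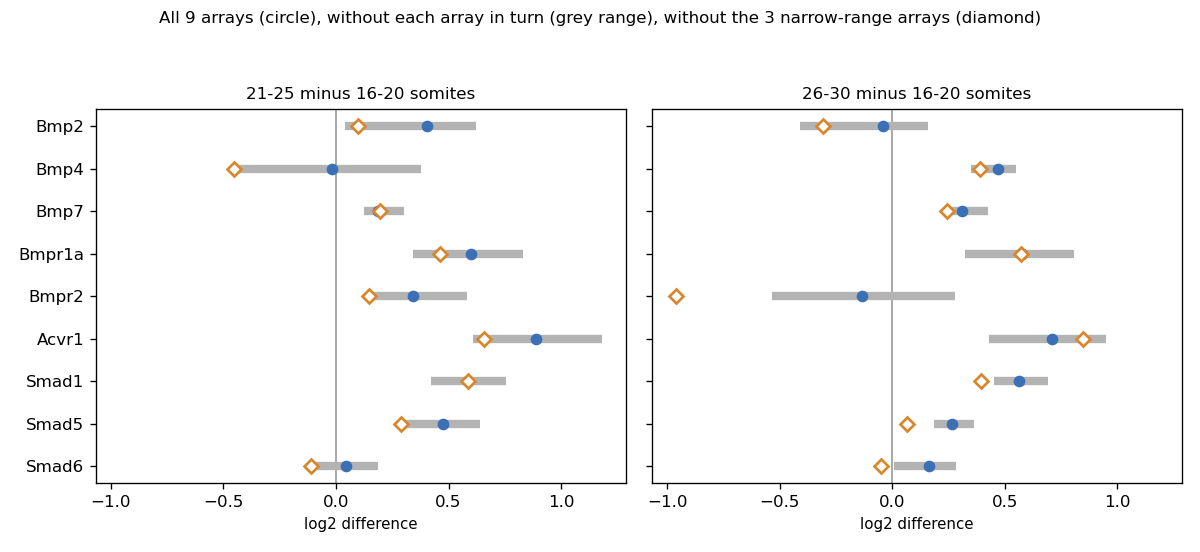
Log2 difference of the brightest tested probe set of 9 genes for the first step and the whole interval, with all 9 arrays (circles), the range when each array is left out in turn (grey) and without the 3 narrow-range arrays (open diamonds). Bmp7, Bmpr1a, Acvr1, Smad1 and Smad5 stay above 0 in both panels, Bmp4 and Smad6 cross it in the first step and Bmp2 and Bmpr2 over the whole interval, where Smad6 is below 0 without the narrow-range arrays.

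Inside the cell, other genes of the branch were described from the same fit. Of 10 tested genes for other SMADs and regulators, 0 were called in limma at any step. Over the whole interval 7 were positive, against 51.6% of all tested, with a median of 0.29. There 3 lay wholly higher, against 10.9% of all tested, and 0 wholly lower, against 9.60%. The widest were Tob1 (0.64 ± 0.38) and Skil (0.58 ± 0.29), antiproliferative and corepressor proteins that bind SMADs, and Tob2 (0.50 ± 0.25). Smad7, the inhibitory SMAD shared with the TGF-beta branch and also singled out after its values were seen, read 320.9, 312.4 and 253.4, then 618.5, 416.1 and 398.2, then 419.4, 472.4 and 334.8. It was wholly higher at both later stages and had 0.63 ± 0.24 in the first step (unadjusted p = 0.0225, adjusted p = 0.448). Smad4, the common partner, was named for its role and had 0.16 ± 0.25 over the whole interval.

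Among 13 tested target genes, limma called 0, and over the whole interval 2 had an unadjusted p under 0.05, with 7 positive, a median of 0.04, 3 wholly higher and 4 wholly lower. Over all probe sets tested the shares were 10.4% at an unadjusted p under 0.05, 51.6% positive, 10.9% wholly higher and 9.60% wholly lower. Id4, a helix-loop-helix inhibitor, read 139.6, 102.8 and 147.3 at 16-20 and 241.7, 350.5 and 274.1 at 26-30 somites, a difference of 1.01 ± 0.27 (adjusted p = 0.357). Id1 and Id3, known as direct BMP targets and singled out here after their values were seen, were wholly lower at 26-30 somites, each with -0.46 (adjusted p of 0.570 and 0.538), while Id2 overlapped between the stages with 0.32 ± 0.38. The other wholly lower targets were Msx2, a homeobox gene (-0.62 ± 0.31), and Hey1, a transcriptional repressor (-0.42 ± 0.24). The T-box gene Tbx2 had 0.63 ± 0.26, and the homeobox gene Dlx3 had -0.75 ± 0.41. Over all 41 tested genes of these lists 25 were positive, with a median of 0.16, 5 had an unadjusted p under 0.05, 6 lay wholly higher and 6 wholly lower, to be read against the same shares.

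**Figure D5:**
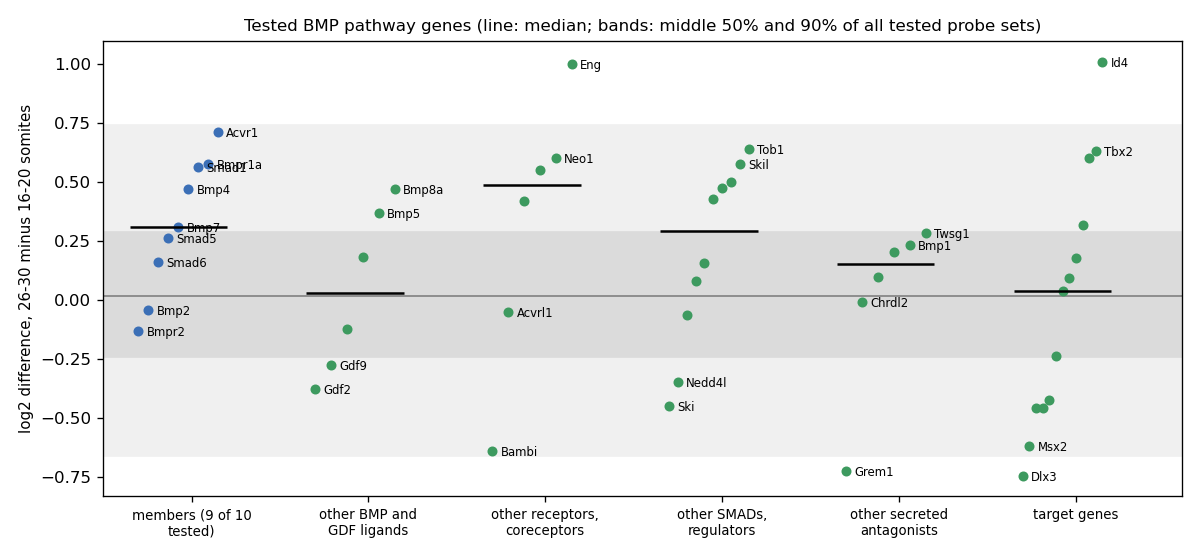
Log2 difference of 26-30 minus 16-20 somites for 9 BMP genes above the filter (blue) and for 41 other pathway genes in 5 lists (green), 1 point a gene, with list medians as lines; the bands hold the middle 50% and 90% of all 14266 tested probe sets. Eng and Id4 lie above the wider band and Grem1 and Dlx3 below it.

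The genes most like each BMP gene over the 9 arrays were found among 9505 others by Pearson correlation of log2 values, as a description of these arrays, which share scaling and signal range. The closest to Bmpr1a were the importin Ipo7 (r = 0.975) and the foregut transcription factor Sox2 (r = 0.968). For Smad1 they were Sec24d, a coat protein of secretory vesicles (r = 0.968), and the small GTPase gene Rab28 (r = 0.965), and for Acvr1 Plek (r = 0.932) and Akap3 (r = 0.932). For Bmp4 they were Vps35l (r = 0.968) and Tmem184c (r = 0.950), for Bmp7 Retreg2 (r = 0.965) and Rbm7 (r = 0.955), and for Smad5 Anln (r = 0.972) and Nsmaf (r = 0.967). Smad6 was closest to Rffl (r = 0.964) and the collagen gene Col1a1 (r = 0.956). The dim Bmp2 and Bmpr2 reached 0.901 with Cysrt1 and 0.947 with Fibp. With stage means taken out, r was 0.963 for Bmpr1a with Ipo7 and 0.969 with Sox2. Over all pairs found it ran from 0.881 to 0.982. The pairs were picked for a high r among 9505 genes on these same 9 arrays. High values of r, with or without stage means, were therefore largely set by that choice.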

How the data were processed

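Per the labels' protocols, 100 ng of total RNA from each pool was amplified in 2 rounds, labelled and hybridised. The deposited intensities were made with MAS5 (per the submitters' processing notes), are linear, and were used as deposited; no source used here states the MAS5 version, its target value or its detection calls. The 2% trimmed mean was near 500.2 on every array and array medians spanned 0.302 on the log2 scale. Only probe sets with 1 gene symbol (20380 of 22690) were kept. Values were taken as log2(signal + 26.1), the pseudocount being the 20th percentile of all values, and 14266 probe sets with a mean at or above the 30th percentile (57.1) were fitted together in limma 3.58.1 (R 4.3.3, lmFit, eBayes with trend), with Benjamini-Hochberg adjustment at 0.05 over all of them. The fit was run on simulated data. The smallest difference put in was wider than any whole-interval difference of the tested BMP probe sets, so that run does not cover differences of their size. Each gene is led by its brightest probe set; of other pathway genes, up to 3 per list with the widest whole-interval difference are named. The members and lists were chosen with earlier results of these data known. Alternatives changed the pseudocount, filter, normalization, array weights, replicate block and arrays used; those for probe-set ratios were chosen after seeing the data.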

Additional observations from a re-analysis of the deposited data

How the results depend on the processing

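No BMP probe set was called under any of the 22 alternative settings. Over all tested probe sets, array weights (0.371 for 21-25 somites replicate 2 to 3.07 for 26-30 somites replicate 1) gave 616 calls for 26-30 against 16-20 somites (360 higher, 256 lower), 1 for 26-30 against 21-25 and 144 for any difference; the cause was not tested. With single arrays left out, calls ranged from 0 to 3 for 21-25 against 16-20 somites (3 without 21-25 somites replicate 3), and from 0 to 1 for 26-30 against 16-20, the difference between the steps and any difference. Deviations of same-numbered arrays of different stages correlated at -0.258 to 0.231 (2 of 9 above 0.1), inside the range of differently numbered ones, -0.469 to 0.385. The highest of the latter joined 2 narrow-range arrays, 21-25 somites replicate 1 and 26-30 somites replicate 2. With the replicate number as a block 0 probe sets were called in each comparison, with 1418, 475 and 1509 at an unadjusted p under 0.05. Of 51 member differences, 28 kept their sign in every setting and 23 turned in at least 1.

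Array weights turned the first step of Bmpr1a 1451729_at (0.043) and Smad6 (-0.16), the second step of Bmp2 (0.012), Bmpr1a 1425492_at (0.11) and 1425493_at (0.065), Acvr1 1448460_at (0.10), Smad1 (0.20) and Smad5 1451873_a_at (0.040), and the whole interval of Bmp2 (0.35), Bmpr2 (0.10) and Acvr1 1416787_at (-0.026). The mean of a gene's probe sets turned Bmp7 (-0.24 first step, -0.10 whole interval), Acvr1 (0.12) and Smad1 (0.012) in the second step. A pseudocount 4 times larger turned the first step of Bmp4 (0.0094) and the ratio of Bmpr1a 1425492_at to 1425493_at (0.068), and one 4 times smaller the ratio of Acvr1 1448460_at to 1416786_at (-0.067). Without the 3 narrow-range arrays the turned values were Acvr1 1416786_at (-0.50) and Smad6 (-0.11) in the first step, Bmpr1a 1425492_at (0.11) and Acvr1 1448460_at (0.19) in the second, Smad6 (-0.048) over the whole interval and the ratio of 1425492_at to 1425493_at (0.18). The causes were not tested.

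With single arrays left out, the first step ran from -0.055 to 0.068 for Bmpr1a 1451729_at, -0.070 to 0.32 for 1425491_at, -0.50 to 0.77 for Acvr1 1416786_at, -0.65 to 0.22 for 1416787_at, -0.11 to 0.19 for Smad6, -0.45 to 0.38 for Bmp4 and -0.14 to 0.24 for Smad5 1421047_at. The second step ran from -0.094 to 0.11 for Bmpr1a 1425492_at, -0.27 to 0.034 for 1425493_at, -0.037 to 0.24 for 1425491_at, -0.47 to 0.053 for Acvr1 1448460_at, -0.15 to 0.73 for 1416787_at, -0.28 to 0.97 for 1416786_at, -0.19 to 0.14 for Smad1 and -0.026 to 0.27 for Smad6. The whole interval ran from -0.41 to 0.16 for Bmp2, -0.53 to 0.28 for Bmpr2 and -0.22 to 0.34 for Acvr1 1416787_at. The ratios of Bmpr1a 1425492_at to 1425493_at and to 1425494_s_at ran from -0.23 to 0.13 and -0.31 to 0.28, and that of Acvr1 1448460_at to 1416786_at from -0.36 to 0.65. Signals near the filter level (Bmp2, Bmpr2, Nog) limit what these arrays can show.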
